A study of Homo sapiens with 12 samples.

Results

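The comparison described here set HEK001 keratinocytes that carried a hairpin against NCSTN against HEK001 cells that carried a luciferase control hairpin in the pLKO vector. Its members were chosen by the line and hairpin in the sample titles. They are 6 of the 12 arrays of the series, 3 with the NCSTN hairpin and 3 with the control hairpin. The other 6 arrays, of HEK293 cells, entered only an alternative fit. HEK001 is a human epidermal keratinocyte line immortalized with papillomavirus E6 and E7 genes. It was grown in serum-free keratinocyte medium with EGF and bovine pituitary extract. Both arms were infected with lentivirus made in 293T cells, with polybrene at 10 µg/mL. The virus was removed after 24 h, and the cells were kept in puromycin for about 2 weeks. The puromycin dose is labelled 0.5 per mL with an incompletely written mass unit. Every difference below is thus one between drug-selected populations. A single hairpin sequence is labelled for NCSTN, and the design text calls the treatment siRNA. Each array was made from 100 ng of total RNA. The labels do not say whether the 3 replicates were separate cultures, so the spread behind each p-value is that of these samples and could be technical only.

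Nicastrin, the product of NCSTN, is the large glycoprotein subunit of gamma-secretase. This membrane protease also holds presenilin, APH1 and PEN-2, and it cuts the stubs that sheddases leave of Notch receptors, the amyloid precursor protein APP and many other proteins. In epidermis, gamma-secretase is known for its part in Notch signalling, which governs the switch of keratinocytes from division to differentiation. A profile of all genes asks which programmes differ between the arms, whether or not they are tied to a known substrate.

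The labelled target of the NCSTN hairpin is shown first because every array of one arm carries it. Capitals mark the bases that would pair with bases 2 to 8 of the antisense strand, the seed through which short RNAs can also bind other transcripts.
NCSTN hairpin target: gctctactgaataCTCTACAt
antisense strand: aTGTAGAGtattcagtagagc
The target is 21 bases long. NCSTN lies at chr1:160343383-160358949 (GRCh38.p14), and the position of the target in its transcript was not analysed here. Of the mature miRNAs in the RefSeq table, 0 share this seed.

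All levels below are log2 normalized intensities, and differences are the NCSTN arm minus the control arm on the log2 scale, with the standard error of the fit. NCSTN measured 10.12, 10.15 and 9.96 on the control arrays and 6.62, 7.09 and 6.93 on the arrays with its hairpin. Every array with the hairpin was below every control array. NCSTN fell by 3.20 (SE 0.131, limma adjusted p = 7.87e-06), to 0.109 times the control level, and this rests on 1 probe. Of the other subunits, the APH1B arrays lay at 6.72, 6.95 and 6.99 in controls and 7.29, 7.06 and 7.22 with the hairpin, a difference of 0.30 that did not pass the threshold (adjusted p = 0.0872). PSEN2 (−0.17), PSENEN (−0.07) and APH1A (−0.04) did not pass either.

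Between 15086 and 15621 of 47318 probes were detected per array. After the detection filter, 9312 named genes were fitted. Arrays of one arm correlated across genes at Pearson's r of 0.9928 to 0.9934 for the control and 0.989 to 0.994 for the NCSTN hairpin, and arrays of different arms at 0.9759 to 0.9828. All 9 fixed keratinocyte markers with a probe were detected on 6 of 6 arrays, and their summed linear level was 37500 to 38100 in controls and 45500 to 49900 with the hairpin. Of the markers of other cells, 2 of 8 fibroblast, 2 of 7 melanocyte, 2 of 7 leukocyte and 0 of 4 endothelial genes had a probe. The fibroblast pair summed to 28.9 to 34.5 in controls and 31.4 to 34.3 with the hairpin, and the melanocyte pair to 26.2 to 53.1 and 25.6 to 29.9. The leukocyte pair summed to 313 to 413 in controls and 489 to 568 with the hairpin. CD68, a lysosomal glycoprotein gene of macrophages that other cells also express, was the member detected on all 6 arrays. It rose by 0.53 (SE 0.14, limma adjusted p = 0.0269) and did not pass without control replicate 2 (0.579), control replicate 3 (0.383), NCSTN replicate 1 (0.508) or NCSTN replicate 2 (0.481). NCSTN replicate 3 lay farthest from the other arrays of its arm, at a root mean square difference of 0.261 over genes, against 0.195 to 0.215 for the other 5 arrays.

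Most of the called differences were under 2-fold. Of the 9312 genes, 1929 passed the threshold of a limma adjusted p under 0.05, which is 20.7%. They split into 1005 higher with the NCSTN hairpin (10.8%) and 924 lower (9.92%). The count was 784 with median scaling in place of quantile normalization, and 1245, 1177 and 1102 without control replicate 1, 2 and 3. A difference of at least 2-fold was reached by 122 (1.31%), 75 of them higher (0.805%) and 47 lower (0.505%). The absolute log2 difference of the called genes had a median of 0.521 and a smallest value of 0.283, against a median of 0.191 over all genes and a median standard error of 0.113. By size, 432 higher and 449 lower calls differed by less than 0.5. Another 498 higher and 428 lower genes lay between 0.5 and 1, 60 and 41 between 1 and 1.5, and 11 and 4 between 1.5 and 2. Only FGFR3, CXCL14, CLCA2 and DIRC3 were higher, and NCSTN and KRT80 lower, by a fitted difference of 2 or more. The median over all genes was −0.00769, and 90% of genes lay between −0.517 and 0.555. The arms did not overlap for 3662 genes (39.3%), among them 1922 of the 1929 called.

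Calls came from all expression levels. When the genes detected on all 6 arrays were split by mean level into 4 groups of 2176, the lowest group had 9.7% called higher and 9.88% lower, and the highest group 9.01% and 7.9%. The share at 2-fold was 1.01% in the lowest group, 1.65% and 0.781% in the middle groups and 0.965% in the highest. Of the 20 genes with the brightest probes, among them EEF1A1, ACTG1, TMSB4X and several ribosomal protein genes, 0 passed the threshold. Their differences lay between −0.19 for RPL18 and 0.17 for TMSB10. The brightest probe of all was annotated to LAIR1, and probes annotated to CLUAP1 and F2R were also among the 20. Whether these probes read only the gene they are named for was not analysed here. All autosomes and the X chromosome held calls, from 15.3% of the genes on chromosome 2 to 29.2% on chromosome 21. Chromosome medians ran from −0.0636 for chromosome 4 to 0.0534 for chromosome 19, and chromosome 19 had 98 higher and 39 lower genes.

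**Figure D1:**
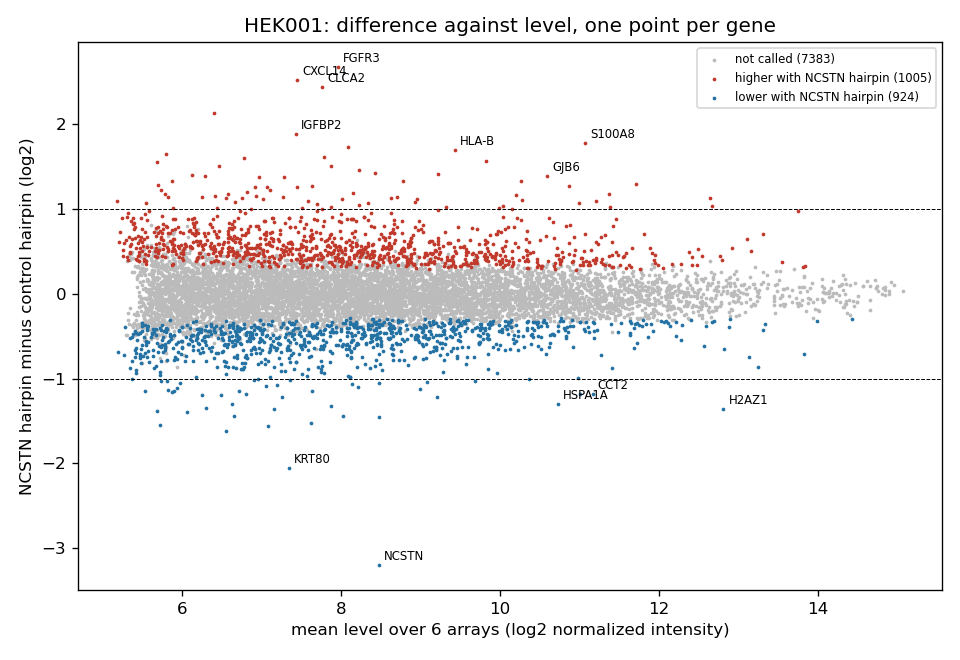
Difference between the arms (log2, y axis) against mean level over the 6 arrays (log2 normalized intensity, x axis) for 9312 genes, red for 1005 called higher, blue for 924 called lower and grey for the rest, with dashed lines at 2-fold. Most called genes lie inside the dashed lines, and NCSTN is the lowest point.

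The 3 highest fitted differences were those of FGFR3, CXCL14 and CLCA2. FGFR3, a receptor tyrosine kinase for fibroblast growth factors, measured 6.68, 6.80 and 6.42 on control arrays and 9.28, 9.29 and 9.33 with the NCSTN hairpin. It rose by 2.67 (SE 0.114, limma adjusted p = 7.87e-06). A second FGFR3 probe, detected on 2 control arrays and 1 NCSTN array and so not fitted, differed by −0.28, so the 2 probes do not show the same direction. CXCL14, an epithelial chemokine, measured 6.13, 6.36 and 6.08 in controls and 8.56, 8.91 and 8.64 with the hairpin, and it rose by 2.51 (SE 0.124). CLCA2, a membrane protein of keratinocytes that p53 is known to induce, measured 6.88, 6.50 and 6.26 against 9.08, 9.10 and 8.75, and it rose by 2.43 (SE 0.164). The arms of all these genes are far apart, with gaps larger than the range within either arm.

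DIRC3, a long noncoding RNA next to the IGFBP5 gene, was detected on 2 of 3 control arrays and was at least 3.93-fold higher with the NCSTN hairpin. IGFBP2, which binds insulin-like growth factors outside the cell, measured 6.36, 6.50 and 6.63 in controls and 8.12, 8.26 and 8.74 with the hairpin, a rise of 1.87 (SE 0.159). S100A8, a subunit of the calcium-binding alarmin calprotectin, measured 10.10, 10.23 and 10.21 against 12.01, 11.92 and 11.93, a rise of 1.77 (SE 0.0918). Each of these was higher on every array of the NCSTN arm. FOLR3, a secreted folate-binding protein gene, rose by 1.61, SAA1, an acute-phase apolipoprotein gene, by 1.51 (0.71 for its other probe), and RAB7B, a small GTPase of endosome traffic, by 1.46. GJB6, which encodes connexin 30 of epidermal gap junctions, rose by 1.39, ST6GALNAC2, a sialyltransferase gene, by 1.37, FXYD3, a regulator of the sodium pump, by 1.37, and LGALS7, the keratinocyte galectin, by 1.33. The other FXYD3 probes differed by 0.56 and 0.17. FXYD3 stood at 0.55 with median scaling, 0.446 without control replicate 3 and 0.571 without NCSTN replicate 1, where it did not pass, and at 0.656 without NCSTN replicate 3, where it did. Each fit read the gene from its brightest probe, so these fits may have read another FXYD3 probe. CEACAM1, a cell adhesion protein gene, was at least 2.09-fold higher, MAPRE3, which binds microtubule ends, at least 2.60-fold, and IL33 at least 2.32-fold, because their control arrays were not all above background.

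After NCSTN, the lowest differences were those of KRT80, TMEM156 and AUNIP. KRT80, an epithelial keratin, measured 8.23, 8.44 and 8.42 in controls and 6.14, 6.34 and 6.47 with the hairpin, and it fell by 2.05 (SE 0.115, limma adjusted p = 3.70e-05). TMEM156, a transmembrane protein gene, measured 7.33, 7.37 and 7.41 against 5.79, 5.62 and 5.83 and fell by 1.62. AUNIP, which takes part in spindle formation and in the repair of DNA ends, measured 7.96, 7.78 and 7.85 against 6.20, 6.32 and 6.40 and fell by 1.56. The arms of these genes did not overlap. MNS1, a gene of motile cilia (−1.52), NTM, an adhesion protein gene (−1.44), MAPK13, which encodes the kinase p38 delta (−1.36), and IL6ST, the shared receptor of the interleukin 6 family (−1.32), fell as well. H2AZ1, a histone variant gene, measured 13.47, 13.48 and 13.50 in controls and 12.12, 12.19 and 12.08 with the hairpin, and it fell by 1.35. CPS1, the first enzyme of the urea cycle, fell by 1.22, ERH, a small conserved nuclear protein gene, by 1.18, and EEF1A2, a tissue-restricted elongation factor, by 1.18. FAM43B was at least 2.11-fold lower, FN1, the fibronectin gene, at least 2.22-fold, and CRIP1 at least 2.04-fold. TELO2 and CD55 were called with overlapping arms and with the largest standard errors of these genes (0.351 and 0.355). Allowing only for undetected arrays, the arm means put them at least 2.16-fold and 2.30-fold lower. The 95% intervals of the fitted log2 difference were wider, from −2.19 to −0.606 for TELO2 and from −2.14 to −0.540 for CD55. TELO2 did not pass without control replicate 1 or 2 (−1.20 each) or NCSTN replicate 1 (−1.24) or 3 (−1.21), nor CD55 without control replicate 1 (−1.19) or 3 (−1.14) or NCSTN replicate 2 (−1.01) or 3 (−1.32). Of the 50 genes with the most extreme calls, 41 were read by 1 kept probe, and 24 were in none of the 80 gene lists used below.

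**Figure D2:**
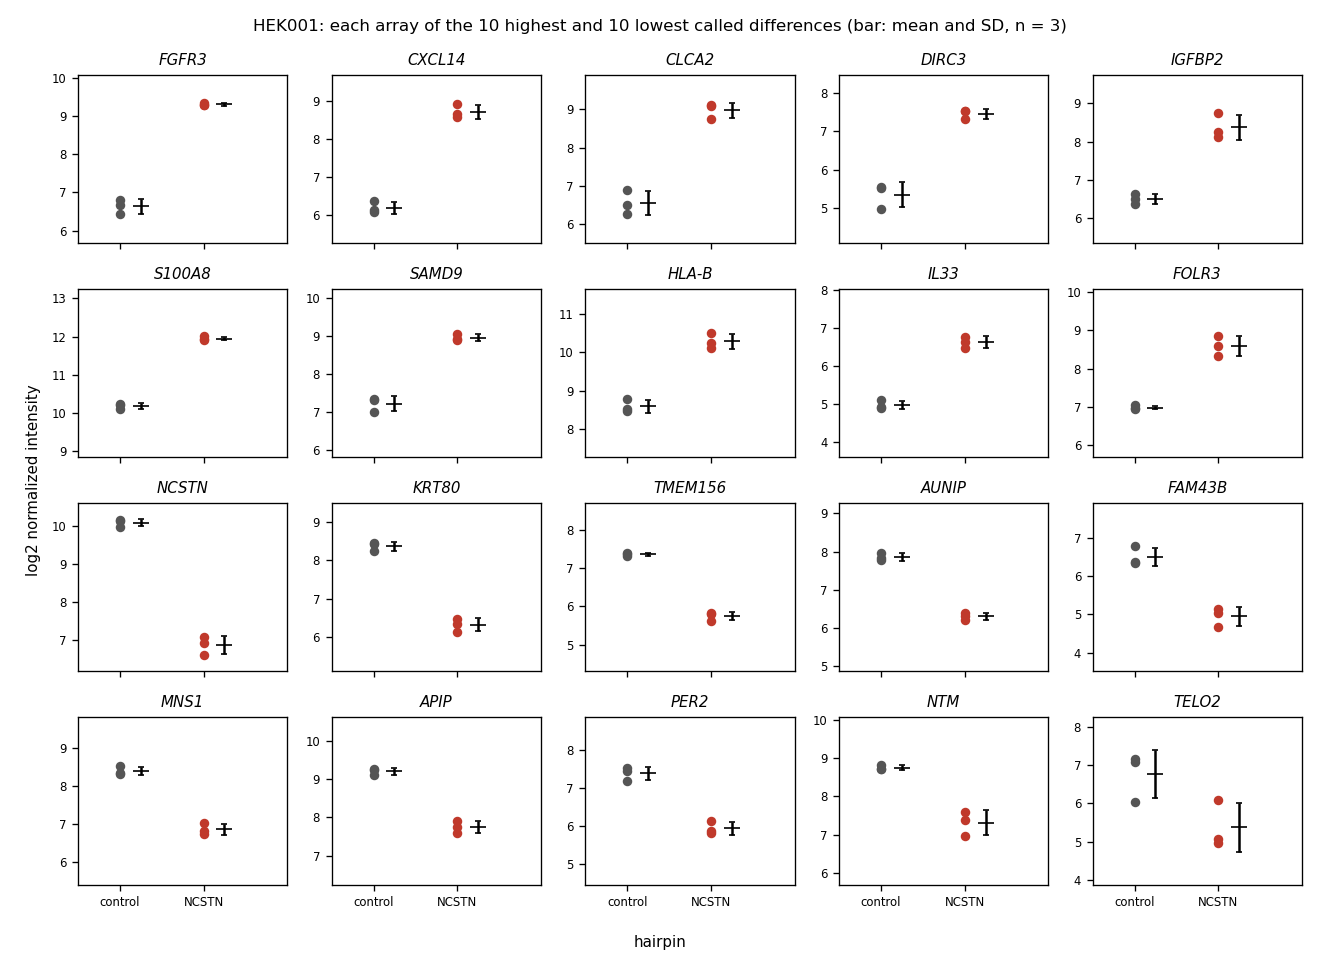
Level (log2 normalized intensity, y axis) on each of the 3 control arrays (grey) and 3 NCSTN hairpin arrays (red) for the 10 highest and 10 lowest called differences, with mean and SD beside the points (n = 3); all panels span the same number of log2 units. The arms are apart in every panel but TELO2.

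Genes of cell division formed the largest group of lower genes among the lists. Of 58 measured G2/M and mitosis genes, 45 were lower and 0 higher (77.6% called), with a median of −0.60, where 9.92% of all genes were lower and the median was near 0. TOP2A, the topoisomerase that untangles mitotic chromosomes, measured 10.97, 10.82 and 10.82 in controls and 9.92, 9.78 and 9.91 with the NCSTN hairpin, and it fell by 1.00 (SE 0.10, limma adjusted p = 0.00036). KIF4A, a kinesin of mitotic chromosomes, measured 8.13, 8.04 and 7.98 against 7.04, 7.04 and 7.18 and fell by 0.96. CCNA2, the cyclin of S and G2 phase, measured 10.03, 9.93 and 10.00 against 9.24, 9.15 and 9.09 and fell by 0.83. No array of one arm reached the other in these genes. CDCA3 fell by 0.83, ANLN, which builds the cleavage furrow, by 0.78, and KIF23, a kinesin of the midbody, by 0.79. CCNB1 (−0.40), TPX2 (−0.39) and KIF18A (−0.36) pointed the same way and did not pass. Only 1 of the 58 genes had a difference above 0. Over the alternative settings, 35 to 47 of the genes were lower. In RNA of whole cultures, fewer cells in a phase and less of its RNA per cell cannot be told apart.

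The promoters of TOP2A and KIF4A are shown because mitotic genes are known to share the cell cycle homology region, bound by the DREAM and MuvB complexes, and the CCAAT box, bound by NF-Y. Each run holds the 250 bases before the RefSeq start (GRCh38.p14), 5′ to 3′ on the strand of the gene, with both motifs in capitals.
TOP2A promoter, chr17:40417897-40418146, minus strand: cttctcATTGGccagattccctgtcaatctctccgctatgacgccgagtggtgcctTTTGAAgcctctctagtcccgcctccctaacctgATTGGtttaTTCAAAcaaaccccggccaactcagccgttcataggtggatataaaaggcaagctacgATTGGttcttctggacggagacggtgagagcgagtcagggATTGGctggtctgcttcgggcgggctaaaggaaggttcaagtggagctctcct
KIF4A promoter, chrX:70289854-70290103, plus strand: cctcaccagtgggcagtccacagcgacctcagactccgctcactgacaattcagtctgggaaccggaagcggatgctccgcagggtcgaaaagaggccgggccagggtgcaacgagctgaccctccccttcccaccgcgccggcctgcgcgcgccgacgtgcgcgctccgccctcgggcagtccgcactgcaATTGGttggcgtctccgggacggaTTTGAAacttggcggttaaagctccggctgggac
TOP2A holds the letters TTTGAA on either strand with first bases 194 and 151 bases before the start, and KIF4A once at 34. CCAAT, read here as ATTGG, begins 244, 160, 93 and 53 bases before the start of TOP2A and 58 before that of KIF4A. Searched on both strands from 250 bases before to 50 after the start, TTTGAA stood in 31 of 38 promoters found for the 45 lower mitosis genes (81.6%), in 37 of 49 for all fitted mitosis genes (75.5%) and in 9.38% of the 7657 promoters of fitted genes. CCAAT stood in 27 of the 38 (71.1%), in 36 of 49 for all fitted mitosis genes (73.5%) and in 37.9% of all. In the promoters printed here the motifs do not overlap. These are matches of letters, and binding was not measured.

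Genes of DNA replication were lower by smaller amounts. Of 43 measured replication and S phase genes, 21 were lower and 1 higher (51.2% called, against 20.7% of all genes), with a median of −0.35. GINS4 (−0.76) and GINS2 (−0.66) encode parts of the replicative helicase, MCM10 (−0.63) loads polymerase at the fork and PRIM1 (−0.63) is a primase subunit, and all fell. E2F2, an activator E2F, measured 8.34, 8.41 and 8.56 in controls and 7.44, 7.93 and 7.78 with the hairpin and fell by 0.72, with the arms apart. E2F1, another activator E2F, went the other way, at least 1.44-fold higher, from 5.57, 5.17 and 4.65 in controls to 6.06, 6.07 and 5.86, near the detection limit, and it did not pass without NCSTN replicate 1 (0.834). CCNE1 (−0.36), POLA1 (−0.35) and FEN1 (−0.34) did not pass. With median scaling, 10 replication genes were lower. The E2F motif TTTNGCGC stood in 6 of 19 promoters of the lower replication genes (31.6%), in 15 of 37 for all fitted replication genes (40.5%) and in 3.33% of all.

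DNA repair and nucleotide synthesis genes had the same direction. Of 20 measured repair genes 11 were lower and 1 higher (60% called, against 20.7% of all genes), with a median of −0.48. EXO1, an exonuclease of mismatch repair and end resection, measured 9.13, 8.96 and 8.92 against 7.88, 8.07 and 7.90 and fell by 1.05 (SE 0.10), and a second probe was also called lower. NEIL3, a DNA glycosylase, fell by 1.00, CHEK1, the checkpoint kinase, by 0.77, UNG, which removes uracil from DNA, by 0.76, and BLM, a helicase, by 0.68. Of 21 nucleotide synthesis enzymes 7 were lower and 0 higher. TYMS, which makes thymidylate, measured 10.37, 10.16 and 10.35 against 9.36, 9.38 and 9.46 and fell by 0.89. DUT fell by 0.62 and CTPS1 by 0.53, while RRM2 (−0.65, adjusted p = 0.0934) did not pass. No array of the NCSTN arm reached the control arrays in EXO1 or TYMS.

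Regulators of the G1 phase did not follow. Of 18 measured CDK inhibitors and G1 regulators, 0 passed the threshold, with a median of −0.03, and the largest differences were −0.53 for RBL1, 0.44 for CDKN2B and 0.31 for E2F3. Histone genes split, with 5 higher and 5 lower of 23. H2BC5 rose by 1.42 (1.26 for its other probe), H2AC6 by 0.99 and H2BC21 by 0.71. Besides H2AZ1, H4C3 fell by 0.87, the DNA-bending protein gene HMGB2 by 0.66 and CENPA, the histone of centromeres, by 0.64. H2BC21, H2BC5 and H2AC6 encode histones whose transcripts are known to be made outside S phase as well, and whether histone probes read related copies was not analysed here. Of 15 genes in a list of p53 targets and the GADD45 family, 3 were higher and 3 lower (40% called), with GADD45B at −0.66. Of 17 BCL2 family and caspase genes, 2 were higher (BAK1, by 0.91, and BIK, at least 1.59-fold) and 0 lower, a share called of 11.8% beside 20.7% of all genes.

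**Figure D3:**
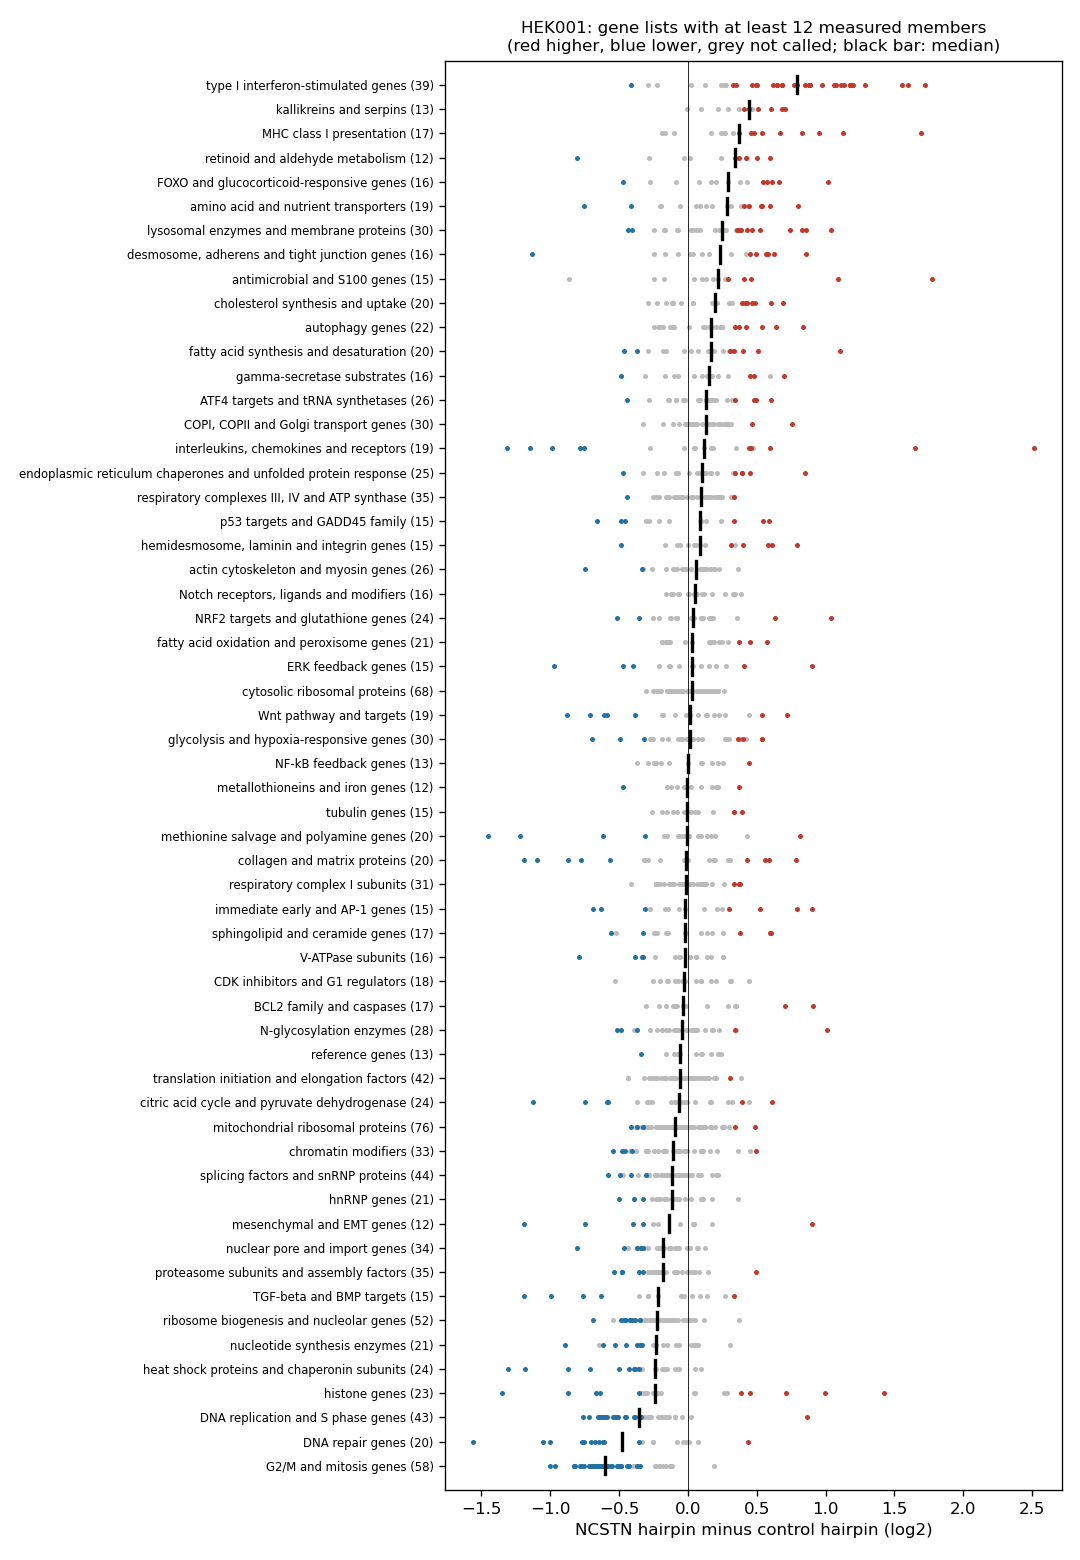
Difference between the arms (log2, x axis) of every measured member of the gene lists with at least 12 measured members (y axis, number of members in brackets), red for called higher, blue for called lower and grey for the rest, with a black bar at the median. G2/M and mitosis genes have the lowest median, −0.60, and type I interferon-stimulated genes the highest, 0.79.

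Cytosolic chaperones were lower while some endoplasmic reticulum chaperones were higher. Of 24 heat shock protein and chaperonin genes, 9 were lower and 0 higher (37.5% called, against 20.7% of all genes). A difference below 0 was found for 22, with a median of −0.24. HSPA1A, an inducible HSP70, measured 11.44, 11.27 and 11.44 in controls and 10.15, 10.18 and 9.90 with the hairpin, and it fell by 1.30 (SE 0.11, limma adjusted p = 0.000187). CCT2, a subunit of the chaperonin that folds actin and tubulin, measured 11.73, 11.86 and 11.68 against 10.52, 10.59 and 10.62 and fell by 1.18. HSP90AA1 measured 14.20, 14.10 and 14.25 against 13.48, 13.54 and 13.39 and fell by 0.71. All 3 genes were lower on every array with the NCSTN hairpin. Of the other HSP90AA1 probes, a bright one differed by −0.83 and a dim one by 0.10. HSPA1B, the near-identical neighbour of HSPA1A, fell by 0.87, and whether each probe reads only its own copy was not analysed here. FKBP4, an HSP90 partner, fell by 0.50, HSPA8, the constitutive HSP70, by 0.43, and the chaperonin genes TCP1 by 0.39 and CCT6A by 0.38. CCT4 (−0.36) and DNAJA1 (−0.34) did not pass. HSPA8, TCP1 and CCT6A did not pass with median scaling, where 5 members were lower. Without 1 array, HSPA8 did not pass without control replicate 1 (−0.39) or 3 (−0.427) or NCSTN replicate 1 (−0.372), CCT6A without control replicate 2 (−0.313) or 3 (−0.378), and TCP1 without any of the control replicates (−0.355 to −0.424) or NCSTN replicate 2 (−0.376) or 3 (−0.293).

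The promoter of HSPA1A is shown because heat shock factor is known to bind repeats of GAA and TTC in it. The run holds the 250 bases before the RefSeq start (GRCh38.p14), with the match to GAANNTTC in capitals.
HSPA1A promoter, chr6:31815293-31815542, plus strand: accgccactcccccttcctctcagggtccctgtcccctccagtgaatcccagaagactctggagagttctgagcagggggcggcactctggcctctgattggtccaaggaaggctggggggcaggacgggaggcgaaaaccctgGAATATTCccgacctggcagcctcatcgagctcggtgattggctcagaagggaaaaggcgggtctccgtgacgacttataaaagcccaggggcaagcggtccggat
The match begins 106 bases before the start and reads the same on both strands. GAANNTTC stood in 4 of 7 promoters found for the lower chaperone genes (57.1%), those of HSPA1A, HSPA1B, HSPA8 and TCP1, in 6 of 22 for all fitted chaperone genes (27.3%) and in 4.54% of all.

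In the endoplasmic reticulum, HSPA5, the lumenal HSP70 also called BiP, measured 8.50, 8.60 and 8.56 in controls and 9.51, 9.33 and 9.37 with the hairpin, and it rose by 0.85 (SE 0.10), with the arms apart. PDIA4, a protein disulfide isomerase, rose by 0.45, but did not pass with median scaling (0.439). In all, 5 of 25 genes of its chaperones and stress response were higher and 1 lower, a share called of 24% beside 20.7% of all genes. DDIT3, a stress-induced transcription factor, lay at −0.23 (adjusted p = 0.151). Of 26 ATF4 targets and tRNA synthetases, 4 were higher and 1 lower (19.2% called, near the share of all genes). KDELR3, which returns proteins to that compartment, rose by 0.75 (0.74 and 0.35 for its other probes). It was 1 of 2 higher among 30 genes of COPI, COPII and Golgi transport (6.67% called, below the share of all genes). MOGS, the first glucosidase of N-glycan trimming, measured 6.93, 6.93 and 7.14 against 7.99, 7.75 and 8.29 and rose by 1.01. Its list did not follow, with 2 of 28 N-glycosylation enzymes higher and 3 lower (17.9% called) and a median of −0.04.

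The lists of protein and RNA production differed among themselves. Of 68 cytosolic ribosomal protein genes, 0 passed the threshold, with differences between −0.31 and 0.26 and a median of 0.03. Of 42 translation factors 1 was higher and 0 lower. Of 52 ribosome biogenesis genes 9 were lower and 0 higher, 46 had a difference below 0, and the median was −0.22, where 9.92% of all genes were lower. RRP9, a protein of the small-subunit processome, fell by 0.69. The count in this list depended on the processing, from 1 with median scaling to 19 with a trended, robust fit. Of 34 nuclear pore and import genes 6 were lower and 0 higher, with 28 differences below 0 and LMNB1, a nuclear lamin, down by 0.80. Of 35 proteasome genes 5 were lower and 1 higher (17.1% called, against 20.7% of all genes), also with 28 below 0. With median scaling 1 gene was lower in each of these lists. Of 44 splicing factors 4 were lower, and of 76 mitochondrial ribosomal proteins 2 were higher and 3 lower.

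Lysosomal and autophagy genes were more often higher than lower. Of 30 lysosomal genes 11 were higher and 2 lower, with a median of 0.24, beside 10.8% of all genes higher. GRN, whose product progranulin supports lysosomal enzymes, measured 9.40, 9.59 and 9.55 in controls and 10.30, 10.49 and 10.86 with the hairpin, and it rose by 1.04 (SE 0.14), with 0.62 for its other probe. CTSD, a cathepsin, measured 7.62, 7.61 and 7.64 against 8.10, 8.27 and 8.72 and rose by 0.74. NAGLU, which degrades heparan sulfate, measured 7.23, 7.03 and 6.92 against 7.76, 7.80 and 8.20 and rose by 0.86. In all 3 genes the arms did not overlap and NCSTN replicate 3 was the highest array. Without NCSTN replicate 3 these genes stood at 0.883, 0.565 and 0.726 and passed, and 13 of the list were higher. GAA, the glucosidase that breaks down glycogen, rose by 0.82, and did not pass without control replicate 1 (0.654). Subunits of the proton pump V-ATPase did not follow, with 4 of 16 lower and 0 higher (25% called, against 20.7% of all genes) and ATP6V0E2 down by 0.79. Of 22 autophagy genes 6 were higher and 0 lower, among them WIPI1 (0.84), which binds the forming autophagosome, and OPTN (0.64), a cargo receptor. The CLEAR box TCACGTGA stood in 1 of 5 promoters found for the higher lysosomal genes (20%), in 4 of 22 for all fitted ones (18.2%) and in 2.21% of all. With median scaling, 4 lysosomal and 2 autophagy genes were higher, and OPTN (0.622) did not pass.

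The lists of lipid metabolism did not move as one. Of 20 cholesterol synthesis and uptake genes 7 were higher and 0 lower, with a median of 0.19, where 10.8% of all genes were higher. LSS, which closes the sterol ring, measured 9.54, 9.63 and 9.42 against 10.17, 10.13 and 10.34 and rose by 0.69, and MVD, an enzyme of the mevalonate pathway, rose by 0.60. ACSS2, which makes acetyl-CoA from acetate, measured 9.76, 9.74 and 9.68 in controls and 11.02, 10.73 and 10.76 with the hairpin, and it rose by 1.11 (SE 0.11, limma adjusted p = 0.00036). The arms were apart for both, and ACSS2 rose on its other probes as well (1.14 and 0.54). Of 20 fatty acid synthesis genes, 5 were higher and 2 lower. SPTLC2, a subunit of the first enzyme of sphingolipid synthesis, rose by 0.61, but of 17 sphingolipid and ceramide genes 3 were higher and 2 lower, with a median of −0.02. Of 21 fatty acid oxidation and peroxisome genes 3 were higher and 0 lower, with a median of 0.03. With median scaling 2 cholesterol genes were higher. The sterol regulatory element TCACNCCAC stood in 0 of 6 promoters found for the higher cholesterol genes, in 0 of 19 for all fitted ones and in 1.02% of all.

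**Figure D4:**
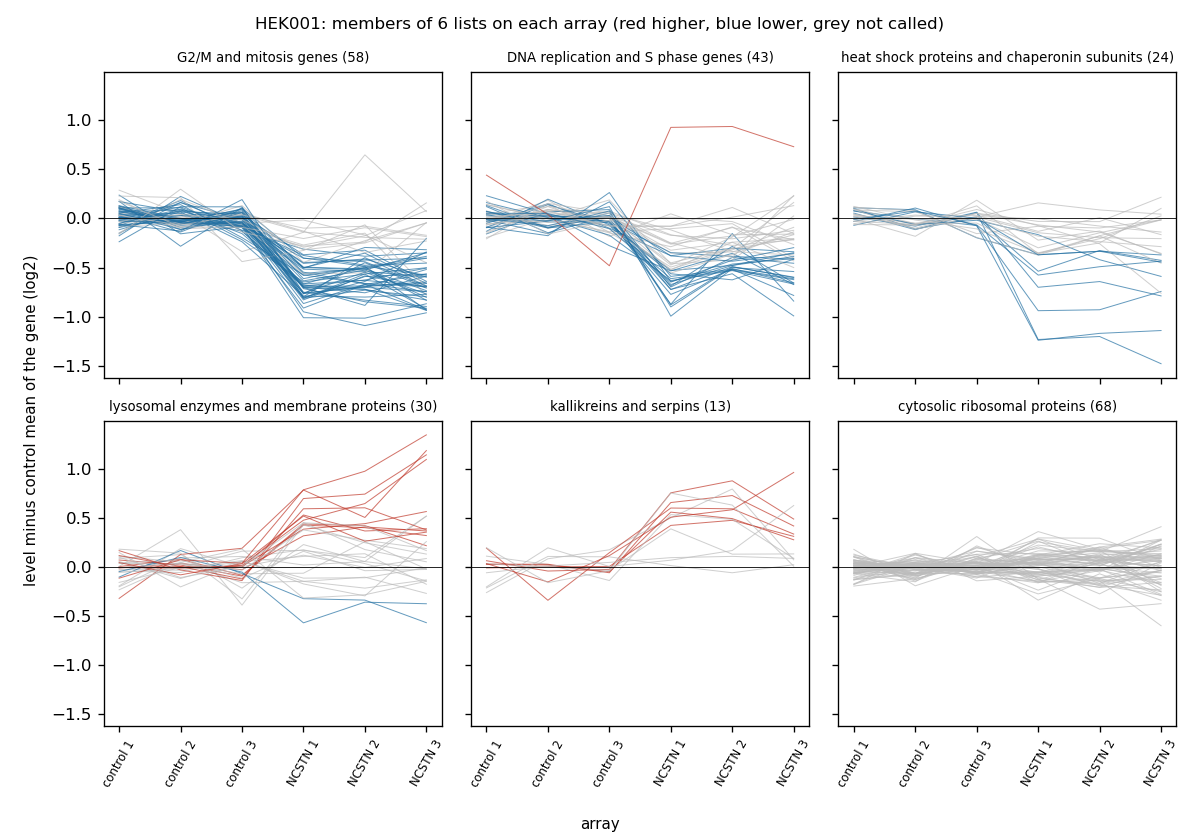
Level of each measured member minus its control mean (log2, y axis) on each of the 6 arrays (x axis) for 6 gene lists, 1 line per gene, red for called higher, blue for called lower and grey for the rest. Mitosis and chaperone genes step down on the 3 NCSTN arrays, lysosomal genes and kallikreins and serpins step up, and the 68 ribosomal protein genes stay near 0.

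Growth factor signalling genes differed beyond FGFR3. Of 6 measured genes of FGF receptors and FGF signalling, a list that also holds the syndecan genes SDC4 and SDC1, 5 were higher and 0 lower. Their median was 0.62. SDC4 rose by 0.35 and passed in 7 of 17 alternatives, and SDC1 (0.01) did not pass. FGF11 rose by 0.76, and FGFBP1, which frees FGFs from the matrix, measured 13.02, 12.91 and 12.93 against 13.72, 13.71 and 13.55 and rose by 0.71. FGFR4 passed at 0.54, but not without control replicate 1 (0.508) or 3 (0.438), nor without NCSTN replicate 1 (0.578) or 3 (0.407). Over the alternatives 3 to 5 genes of this list were higher. Among EGF receptor genes, ERRFI1, an inhibitor of the receptor, measured 11.10, 10.88 and 10.65 in controls and 12.01, 11.91 and 11.78 with the hairpin, and it rose by 1.02 (SE 0.13). ERBB3 rose by 0.71 and EGFR by 0.47, where its other probe (0.33) did not pass, nor did EGFR with median scaling (0.409). No NCSTN array was as low as the highest control array in ERRFI1. Of the other receptor kinases DDR1, a collagen receptor, rose by 0.77, while AXL fell by 0.75 (−1.04 on its other probe). In the IGF axis 3 of 6 genes were higher and 0 lower (50% called, against 20.7% of all genes), with IGFBP7 up by 0.66 beside IGFBP2.

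The transcription factors downstream of these receptors did not move as one. EGR1, an early growth response factor, measured 9.52, 9.65 and 9.58 against 10.42, 10.50 and 10.55 and rose by 0.90. ETV5, an ETS factor that FGF and ERK signalling are known to induce, measured 8.63, 8.55 and 8.52 against 7.67, 7.67 and 7.45 and fell by 0.97. The arms of both were apart, in opposite directions. Of 15 ERK feedback genes 2 were higher and 3 lower (33.3% called, against 20.7% of all genes). JUND rose by 0.79 and ATF3 fell by 0.69, so AP-1 and ATF genes were split as well. Among genes known to follow TGF-beta, CCN2, a matricellular growth factor gene, measured 7.08, 7.19 and 6.97 against 5.95, 5.89 and 5.83 and fell by 1.19 (−0.81 on its other probe). PMEPA1, a feedback inhibitor, fell by 1.00, and TGFBR2, a receptor, by 0.76 (−0.69 on its other probe). In that list 4 of 15 were lower and 1 higher (33.3% called). Of 19 Wnt genes 5 were lower, led by the transcription factor LEF1 (−0.88, and −0.90 on its other probe), and 2 higher, with the ligand WNT10A at least 1.56-fold higher. The share called in the Wnt list was 36.8%.

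The Notch pathway and the other substrates of gamma-secretase were described by 3 lists. Of 16 Notch receptors, ligands and modifiers 0 passed the threshold, with MAML1 (0.39), LFNG (0.34) and JAG2 (0.32) the furthest from 0. Of 7 Notch targets 1 was higher and 1 lower (28.6% called, beside 20.7% of all genes). HES7 was at least 1.22-fold higher, but not called without NCSTN replicate 1 (0.585). HES6 fell by 0.54, but was not called without control replicate 3 (−0.489), and HES1 (−0.09) and MYC (0.21) did not pass. Of 16 other substrates 3 were higher and 1 lower (25% called), among them APP, which measured 10.95, 10.92 and 11.06 against 11.59, 11.45 and 11.97 and rose by 0.70 (0.53 and 0.49 on its other probes). PTPRK, a receptor phosphatase, fell by 0.49, but did not pass with median scaling (−0.536). Of the sheddases that act before gamma-secretase, ADAM19 fell by 0.78, and ADAM17 (0.27) did not pass.

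Of 10 circadian clock genes, 4 were lower and 2 higher (60% called, against 20.7% of all genes), and 0 were higher with median scaling. PER2, a period gene, measured 7.43, 7.52 and 7.18 in controls and 6.13, 5.87 and 5.82 with the hairpin and fell by 1.44 (SE 0.13, limma adjusted p = 0.000229), and PER3 was at least 1.90-fold lower. CRY2, their partner, fell by 0.63. BMAL1, the activator that these proteins inhibit, measured 8.31, 8.23 and 8.37 against 8.83, 8.92 and 8.79 and rose by 0.54, which did not pass with median scaling (0.481). The arms of PER2 and BMAL1 did not overlap. CRY1 (−0.26) and DBP (0.17) did not pass. BHLHE40, another repressor of the clock, measured 9.85, 9.92 and 9.92 against 10.29, 10.23 and 10.18 and rose by 0.34, but it passed in only 1 of the 6 fits without 1 array, that without NCSTN replicate 3 (0.364, against 0.313 to 0.35 in the others). The E-box CACGTG stood in 0 of 4 promoters of the lower clock genes, in 2 of 10 for all fitted ones (20%) and in 10.8% of all. CLOCK was called lower at −0.83 on its brighter probe, but its other probe stood at 0.08 and did not pass. CLOCK turned to 0.0299, 0.0812 and 0.117 without control replicate 1, 2 or 3, where the other probe was the brighter. The time of day of harvest is not given in the sources used here, and its part was not tested.

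Metabolic lists held large differences of single genes, and the transporter and retinoid lists had more genes called higher than lower. In methionine salvage, which recycles the sulfur nucleoside left by polyamine synthesis, the dehydratase gene APIP measured 9.24, 9.11 and 9.26 against 7.59, 7.74 and 7.91 and fell by 1.46 (−1.43 on its other probe). ENOPH1, the next enzyme, measured 9.94, 9.75 and 9.78 against 8.70, 8.69 and 8.42 and fell by 1.22. ODC1, which makes putrescine, fell by 0.62. The arms were apart in each of them, while ADI1 (0.43) and MTAP (0.20) of the same route did not pass. ME2, a mitochondrial malic enzyme, measured 9.66, 9.61 and 9.40 against 8.46, 8.50 and 8.34 and fell by 1.12 (−1.19 on its other probe). DLD, shared by the large dehydrogenase complexes, fell by 0.75 and IDH3A by 0.59. In their list, 4 of the 24 genes were lower and 2 higher (25% called, against 20.7% of all genes). AKR1C3, an aldo-keto reductase, rose by 1.04, with 2 higher and 2 lower among 24 NRF2 and glutathione genes (16.7% called). SLC6A9, a glycine transporter, rose by 0.80 and SLC43A3 fell by 0.75. Of 19 amino acid and nutrient transporter genes 6 were higher and 2 lower (42.1% called), with a median of 0.29. With median scaling 2 of these were higher. DHRS3, which reduces retinal, fell by 0.81, while 5 of 12 retinoid and aldehyde genes were higher and 1 lower (50% called). With median scaling 0 of these were higher. Of 31 subunits of respiratory complex I, 3 were higher and 0 lower (9.68% called). Of 35 of complexes III and IV and ATP synthase, 1 was higher and 1 lower (5.71% called). Both shares were below the 20.7% of all genes.

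Secreted inflammatory factors moved in both directions. Besides CXCL14 and IL33, IL1B measured 10.57 on all 3 control arrays and 11.15, 11.26 and 11.09 with the hairpin, and it rose by 0.60, which did not pass with median scaling (0.546). CXCL1, a neutrophil chemokine, measured 8.87, 8.30 and 8.65 against 7.65, 7.37 and 7.84 and fell by 0.99, CXCL2 was at least 2.07-fold lower, and IL6 at least 1.68-fold lower. The arms of these genes did not overlap. CXCL8 was at least 1.56-fold lower with overlapping arms, and was not called without control replicate 2 or 3 or NCSTN replicate 2 or 3 (−0.619 to −0.756). Of 19 interleukin, chemokine and receptor genes 5 were higher and 5 lower (52.6% called, against 20.7% of all genes). Of 13 NF-kB feedback genes, 1 was higher and 0 lower. S100A9, the partner of S100A8, measured 10.71, 10.60 and 10.67 against 11.78, 11.84 and 11.64 and rose by 1.09, while the antimicrobial genes PI3 and LCN2 did not pass. Type I interferon-stimulated genes had 31 of 39 higher and 1 lower, and MHC class I genes 9 of 17 higher, with SAMD9 (1.73), MX2 (1.60), IFIT1 (1.56) and HLA-B (1.70) among the 25 highest calls.

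Genes of the cell surface and matrix differed in both directions, also within some lists. KRT15, a keratin of basal and follicular stem cells, measured 8.49, 8.48 and 8.56 against 9.92, 9.96 and 9.90 and rose by 1.41, with the arms apart. Of 6 gap junction genes 3 were higher, with GJB2, connexin 26, at 12.28, 12.16 and 11.99 in controls and 13.16, 13.30 and 13.06 with the hairpin, a rise of 1.03, and 0 were lower. Desmosomal cadherin DSG3 rose by 0.86 and the plaque protein gene PKP1 by 0.62, while CGN, of tight junctions, was at least 1.91-fold lower. Of 13 kallikreins and serpins, the proteases and inhibitors of the skin surface, 6 were higher and 0 lower, with a median of 0.44, where 10.8% of all genes were higher. With median scaling 2 were higher. SERPINB1 rose by 0.71 and SPINT1 by 0.68. MMP28, a matrix metalloprotease of keratinocytes, measured 7.02, 6.99 and 6.99 against 8.39, 8.13 and 8.29 and rose by 1.27. Of 20 collagen and matrix genes 4 were higher and 5 lower. FBN2, a microfibril protein gene, measured 8.75, 8.87 and 8.66 against 7.47, 7.73 and 7.78 and fell by 1.10, VCAN, a large proteoglycan, fell by 0.87, COL8A1 by 0.78 and COL5A1 by 0.56. AGRN, a basement membrane proteoglycan, rose by 0.79. Of 12 mesenchymal genes 4 were lower and 1 higher (41.7% called, against 20.7% of all genes), and 2 lower with median scaling. TAGLN, an actin-binding protein gene of smooth muscle, fell by 0.75, and the higher member was ACTA2, a smooth muscle actin gene, which rose by 0.90. Of 8 annexins 0 passed.

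Detection itself changed for a small set. Probes of 49 genes were detected on all 3 NCSTN arrays and on 0 control arrays, and probes of 45 on all 3 control arrays and 0 NCSTN arrays. They were chosen by this difference, so calls among them are a description. The former held, with IL33 and CEACAM1, the immune checkpoint gene VSIR (at least 1.92-fold higher), the flagellin receptor gene TLR5 (at least 1.91-fold), the protease gene FURIN (at least 1.38-fold), the transcription factor genes MAF (at least 1.41-fold) and HOPX (at least 1.25-fold), and the RNA sensor regulator DHX58 (at least 1.28-fold). The latter held DPYD, which degrades pyrimidines (at least 1.78-fold lower), MICB, a ligand of the NKG2D receptor (at least 1.61-fold), PPARG, a nuclear receptor of lipid genes (at least 1.37-fold), the interferon gene IFNE (at least 1.33-fold) and SEMA7A (at least 1.08-fold). The undetected arm gives only a limit, so these folds are bounds. Probes of 1 gene could also disagree. Of 488 called genes with more than 1 kept probe, 441 had all probes in the same direction and 245 had another probe called the same way. ALDH3A2, an aldehyde dehydrogenase, rose by 0.59 and 0.73 on 2 probes and fell by 0.47 on a dimmer one, and CYTH2, an exchange factor for ARF proteins, stood at 0.57, −0.11 and −0.78, the first of which was not called without control replicate 1 (0.441) or 3 (0.579) or NCSTN replicate 3 (0.477).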

How the data were processed

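Total RNA was hybridised to Illumina BeadChips, 1 array per sample. The deposited table gives, per the file headers, a linear signal intensity, a detection p-value and a bead count per probe and array. The intensity values are background-subtracted, since 28.3% to 29.1% lie below 0. A median of 22 beads per probe was counted per array in the deposited bead count columns, with a lowest count of 3 to 5 per array. The error between beads was not compared with that between arrays. The authors' deposited log2 values, used as an alternative, share a median of 6.666 per array, and their normalization is not given in the sources used here. GenomeStudio 2010 and R 3.0.2 are named in the submitters' processing notes.

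The 6 HEK001 arrays were normalized alone in R 4.3.3 with limma 3.58.1 (neqc: normexp from detection p-values, offset 16, log2, quantile). The 14594 of 47318 probes with a detection p under 0.01 throughout 1 arm or both were kept. Names came from GEO's platform annotation, with symbols updated by gene identifier to RefSeq (GRCh38.p14, 16030 of 16040 probes matched). Of the kept probes 11933 had 1 gene and 2661 none. Each gene was read from its brightest probe. Arms were compared with lmFit and eBayes, two-sided, with Benjamini-Hochberg adjustment over 9312 genes, and called at adjusted p under 0.05. Where the dimmer arm was not detected on all 3 arrays, the fold is given as a bound, from the lowest detected signal of each array or the probe's own, whichever was higher. Such a bound compares arm means and does not include the error between arrays. In data simulated with 50 changed genes per size among 9312, this fit recovered 27 at 1.5-fold, 42 at 2-fold, 49 at 3-fold and 50 at 4-fold, with 8 false calls of 176. The simulation changed far fewer genes than were called here and drew noise independently per gene. Its recovery and false calls thus need not hold for the real arrays. Promoter sequences are RefSeq's. Named genes were the subunits, the 25 highest and 25 lowest calls, up to 8 called and 3 uncalled members per list, genes detected in 1 arm only, the 20 brightest, genes with opposed probes and the top gene per chromosome. The comparison and its lists were chosen with earlier results of these data known.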

Additional observations from a re-analysis of the deposited data

Results flagged for a closer look

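Probes without a gene name in the annotation used here lie outside every comparison of named genes. Of the 2661 such probes that passed the detection filter, 355 were called between the arms when all kept probes were fitted (limma, adjusted p under 0.05 over 14594 probes), 188 higher and 167 lower, which is 13.3% beside 18.1% of the named probes. The largest difference among them was 1.42 on the log2 scale. Groups of 3 arrays are too small for the check on single outlying arrays.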

How the results depend on the processing

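The count of calls depended most on the scaling and on the number of arrays. Median scaling in place of quantile normalization left 784 calls, 385 higher and 399 lower, 778 of them among the 1929 and in the same direction. Leaving out 1 array gave 1102 to 1732 calls (583 to 955 higher, 519 to 777 lower), with 1245 (667 and 578) without control replicate 1, 1177 (637 and 540) without control replicate 2 and 1102 (583 and 519) without control replicate 3. These fits have fewer arrays. The calls at 2-fold were 121 to 129 over the same fits (75 to 80 higher, 42 to 52 lower), 230 (134 higher, 96 lower) without background correction, and 56 (40 and 16) with an offset of 50, both of which change the compression of low signals by construction. NCSTN lay between −3.31 and −3.07 without 1 array. With the replicate number as a block, 1633 genes were called (861 higher, 772 lower). Deviations of same-numbered arrays correlated at 0.0487, −0.0861 and 0.0465, and those of differently numbered arrays at −0.126 to 0.114. Same-numbered arrays thus showed no larger shared deviation than the others. Whether the samples were paired by number is not given in the labels, and these values cannot decide it. The other settings gave 1448 (no filter on dim probes) to 2416 calls (trended, robust fit), and the authors' values 2020. CLOCK lay between −0.883 and 0.117 without 1 array, and was above 0 without any of the control replicates, where its other probe was the brighter. Of 443 named called genes, 212 were called in the same direction under all 17 alternatives that gave a value. A change of sign where neither fit passed the threshold was not counted. The causes were otherwise not tested.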
